A study of Mus musculus with 8 samples.

Results

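The genes described are 10 transcription factor genes of the AP-1 and EGR families, out of 22180 genes measured in kidneys of mouse embryos at E14.5, a mid-gestation stage of branching and nephron formation. They are 3 FOS-type genes (Fos, Fosb and Fosl2), 3 JUN-type genes (Jun, Junb and Jund), the related gene Atf3, and Egr1, Egr2 and Egr3. They were chosen by name, and each is represented by its brightest array probe set with a single gene symbol. The study compared 4 embryos in which Grb2 was deleted in the ureteric bud, the epithelium that branches to form the collecting ducts (genotype Grb2 UB-cKO, here Grb2_cKO), with 4 wild-type control embryos, all 8 of 1 litter. Which Cre drove the deletion is not stated in the sources used here. Both kidneys of an embryo were pooled and 1 array was run for each embryo, so n = 4 counts animals, and RNA of all kidney cells was measured, although the deletion was directed at the ureteric epithelium.

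AP-1 is a dimer of a JUN protein with a FOS, JUN or ATF protein, and EGR proteins are zinc finger factors that bind GC-rich DNA. Many of these genes are immediate early genes: growth factors and stress switch them on within minutes through ERK and other MAP kinases, without new protein synthesis. ERK acts on SRF and its ETS-type partners at the promoters of Fos and the Egr genes, while JNK and p38 kinases act mainly on JUN and ATF proteins. GRB2 is an adaptor protein through which activated receptors, among them RET, which drives branching of the ureteric bud, reach RAS and ERK. The comparison asks how the transcripts of these factors stood in kidneys whose ureteric bud lacked that adaptor.

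Grb2 itself was measured at 8.68, 8.65, 8.61 and 8.66 on the log2 scale in controls 1 to 4 and at 8.36, 8.17, 8.22 and 8.06 in Grb2_cKO embryos 1 to 4. It was lower in all 4 Grb2_cKO kidneys, at 73.3% of the control level (95% interval 65.4% to 82.3%, limma adjusted p = 0.0017, exact permutation p = 0.0286). That permutation p is the smallest that 4 against 4 embryos can give, reached by any gene whose groups do not overlap. The groups were not balanced for sex. The averaged log2 value of 3 genes on the Y chromosome (Uty, Kdm5d and Eif2s3y) was 9.94 to 10.1 in the 4 Grb2_cKO embryos and 9.94 in control 3, but 4.09 to 4.24 in controls 1, 2 and 4. Results are therefore also given from a fit with that average as a covariate, in which the contrast rests on control 3. In that fit Grb2 itself stood at -0.40 (SE 0.13) and did not pass (adjusted p = 0.100). Cell type markers also moved between the groups. Of 18 ureteric epithelium markers 13 were lower, and the list averaged 8.74 to 8.85 in control kidneys against 7.62 to 7.95 in Grb2_cKO. Of 10 nephron progenitor markers 8 were lower (list mean 10.02 to 10.17 against 8.77 to 9.29). Higher were 12 of 14 stroma markers (10.34 to 10.58 against 10.95 to 11.18), 6 of 7 podocyte markers (8.64 to 8.79 against 9.12 to 9.76) and 8 of 12 endothelial markers (9.47 to 9.57 against 9.78 to 10.03). Of 14 macrophage and leukocyte markers 10 were higher (7.18 to 7.34 against 7.92 to 8.29), as were 4 of 6 erythroid markers (6.72 to 7.37 against 7.64 to 8.08). Array values have no true zero, so no marker could be placed at 0. The part of sex and of these cell types in the results below was not tested, and in bulk RNA fewer cells of a type and less RNA per cell cannot be told apart.

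Of the 10 AP-1 and EGR genes 2 were higher in Grb2_cKO, Jun and Atf3, none was lower and 8 did not pass an adjusted p of 0.05 in limma, with p-values adjusted over all 22180 genes. Their median log2 difference was 0.03, against 0.006 for all genes. Over all genes 28.1% passed, 13.7% higher and 14.3% lower, so 2 of 10 is close to the share of genes that passed at large. The values of the groups were apart, with no overlap, for 1 of the 10 genes (Jun) and for 31.2% of all genes. At an unadjusted p under 0.05, 3 of the 10 were higher, Jund being the other, and none was lower.

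**Figure D1:**
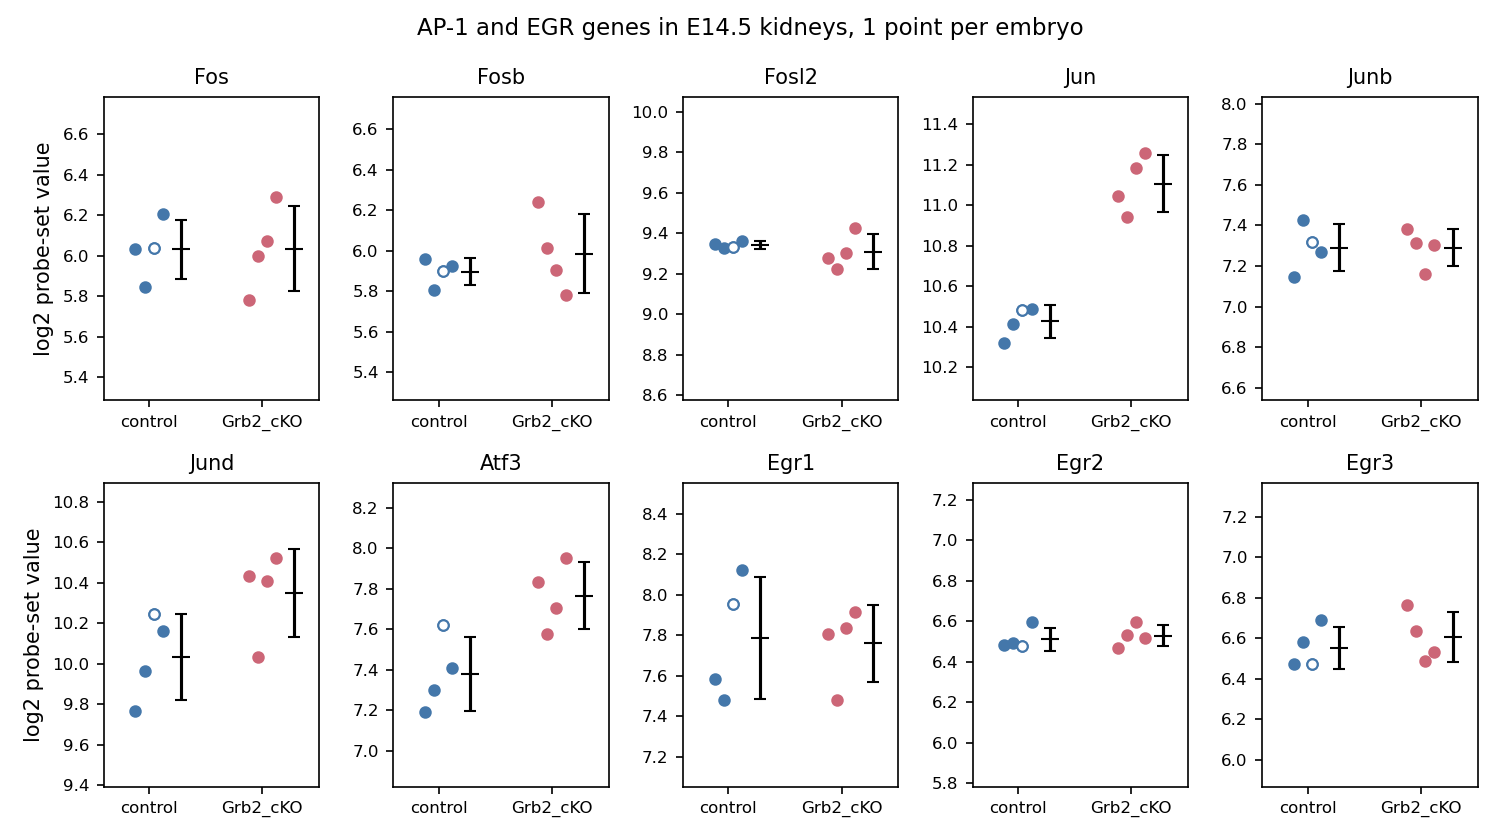
Log2 probe-set value of each of the 10 genes (y axis, a span of 1.5 log2 units in every panel) in 4 control (blue) and 4 Grb2_cKO (red) embryos, 1 point per embryo, with the group mean and SD in black; the open blue circle is control 3, the control with high Y-linked values. Jun is the panel in which no control point reaches the Grb2_cKO points (10.49 at most against 10.94 at least).

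Jun encodes JUN, a subunit that pairs with FOS-type, ATF and other JUN proteins and activates transcription strongly. Its log2 values were 10.32, 10.42, 10.48 and 10.49 in controls 1 to 4 and 11.04, 10.94, 11.18 and 11.26 in Grb2_cKO embryos 1 to 4. Every Grb2_cKO embryo lay above every control, and control 3 lay among the other controls. The group means were 10.43 ± 0.08 and 11.11 ± 0.14 (SD, n = 4 each), a rise of 0.68 on the log2 scale (SE 0.08, 95% interval 0.49 to 0.87), which is 1.60-fold (limma adjusted p = 0.00040). In the fit with the Y-linked covariate the difference was 0.62 (SE 0.14, interval 0.30 to 0.94, adjusted p = 0.041), where 5.62% of all genes passed in either direction. Against control 3 alone it was 0.62 (SE 0.15), and the adjusted p of 0.088 no longer passed. Leaving out each embryo in turn gave 0.63 to 0.73, with adjusted p-values of 0.00053 to 0.0021. The call was lost with the erythroid list mean as a covariate (0.65, SE 0.19, adjusted p = 0.096) and with the macrophage list mean (0.12, SE 0.24, adjusted p = 0.92), both of which lay apart between the groups.

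Atf3 encodes a stress-induced factor that pairs with JUN and often represses its targets. Its values were 7.19, 7.30, 7.62 and 7.41 in controls 1 to 4 and 7.84, 7.58, 7.70 and 7.96 in Grb2_cKO embryos 1 to 4. The groups overlapped, since control 3 lay above Grb2_cKO embryo 2. Atf3 rose by 0.39 (SE 0.11, interval 0.14 to 0.64), from 7.38 ± 0.18 to 7.77 ± 0.16, which is 1.31-fold (adjusted p = 0.026). The call was lost without control 1 (0.32, adjusted p = 0.072), control 2 (0.36, 0.074), Grb2_cKO embryo 1 (0.36, 0.064) or Grb2_cKO embryo 4 (0.32, 0.068). In the fit with the Y-linked covariate Atf3 stood at 0.14 (SE 0.16, adjusted p = 0.69), and against control 3 alone at 0.15 (SE 0.16, adjusted p = 0.69). Within the embryos of high Y-linked values, control 3 at 7.62 stood between Grb2_cKO embryos 2 and 3.

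The promoters of the called genes Jun and Atf3 are shown with those of Fos and Egr2, classic serum-response genes that were not called. They show the letters marked in capitals. For Fos no CArG box lay in the 250 bases searched, so its stretch shows none. The sequences are the last 120 bases before the start of Jun, Atf3 and Fos and 30 bases around the CArG box of Egr2, from 85 to 56 bases before the third of its 5 starts, read 5′ to 3′ on the gene's strand (RefSeq, GRCm38.p6). Jun lies at chr4:95052223-95052342 (minus strand), Atf3 at chr1:191183334-191183453 (minus), Fos at chr12:85473770-85473889 (plus) and the Egr2 stretch at chr10:67537784-67537813 (plus). Capitals mark TGACATCA in Jun, TGACG in Fos and its reverse complement CGTCA in Atf3, and the CArG box in Egr2.
Jun: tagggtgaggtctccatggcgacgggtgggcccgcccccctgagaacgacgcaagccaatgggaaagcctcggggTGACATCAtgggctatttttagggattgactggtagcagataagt
Atf3: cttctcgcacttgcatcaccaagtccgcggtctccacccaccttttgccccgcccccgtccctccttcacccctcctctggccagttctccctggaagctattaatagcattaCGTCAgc
Fos: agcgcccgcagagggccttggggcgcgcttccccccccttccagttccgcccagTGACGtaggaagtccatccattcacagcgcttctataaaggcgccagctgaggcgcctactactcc
Egr2: cctgttcctcagtCCATATATGGgcagcga

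Of the 10 genes 8 had a promoter in the table (all but Egr1 and Egr3), and the 250 bases before each start were searched on both strands. A gene was counted where any of its starts held the letters, while the percentages count promoters, so the shares are of unlike units. The letters TGACATCA, TGACG and TATAAA were not among the motifs first planned. Jun was the gene among these 8 with TGACATCA, the form of the AP-1 and ATF site known from its promoter, 45 to 38 bases before the start. That motif was in 2.93% of all 32851 promoters of 27025 genes. The shorter TGACG, the core of the cyclic AMP response element to which CREB and ATF proteins bind, was in 5 of the 8 genes (Fos, Fosb, Junb, Egr2 and Atf3) and in 17.8% of all promoters. The full element TGACGTCA, which contains TGACG, was in none of the 8 (1.55% of all promoters). Egr2 held a CArG box, the site of SRF, at 4 of its 5 starts, and the other 7 genes held none in this window (1.47% of all promoters). The letters TGANTCA (AP-1, 6.75% of all), GCGTGGGCG (EGR, 0.536%) and CCGGAAG (ETS, 6.91%) were in none of the 8, and TATAAA was in Fos (12.4% of all). A match is a description of letters, and the lack of one says only that they are not in this window.

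Jund and Junb are the other JUN-type genes, and JUNB and JUND proteins are often weaker activators than JUN. Jund was at 9.77, 9.97, 10.24 and 10.16 in controls 1 to 4 and at 10.44, 10.03, 10.41 and 10.52 in Grb2_cKO embryos 1 to 4. Grb2_cKO embryo 2 lay below controls 3 and 4, and the other 3 Grb2_cKO embryos lay above all controls. The log2 difference was 0.32 (SE 0.13, interval 0.02 to 0.61, adjusted p = 0.107), and it passed only without Grb2_cKO embryo 2 (0.42, adjusted p = 0.027). A dimmer Jund probe set read 7.30, 7.37, 7.84 and 7.99 in controls and 8.10, 7.71, 8.25 and 8.35 in Grb2_cKO, with a difference of 0.48 (SE 0.18, adjusted p = 0.083 over every probe set with a single symbol). The brighter probe set, fitted with the Y-linked covariate, stood at 0.10 (SE 0.20, adjusted p = 0.84).

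Junb was at 7.15, 7.43, 7.32 and 7.27 in controls 1 to 4 and at 7.38, 7.31, 7.16 and 7.30 in Grb2_cKO embryos 1 to 4. The groups overlapped almost fully, and the log2 difference was 0.00 (SE 0.08, interval -0.18 to 0.18, adjusted p = 0.998). That interval spans 88.3% to 113% of the control level. Within an embryo, Jun minus Junb was 2.99 to 3.22 in controls against 3.63 to 4.02 in Grb2_cKO (mean change 0.68), and Jun minus Jund was 0.24 to 0.55 in controls against 0.61 to 0.91 in Grb2_cKO (mean change 0.37). Both log ratios were higher in all 4 Grb2_cKO embryos than in any control. These pairs were chosen with the result for Jun known and carry its separation between the groups, so they are given as a description, with no test.

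**Figure D2:**
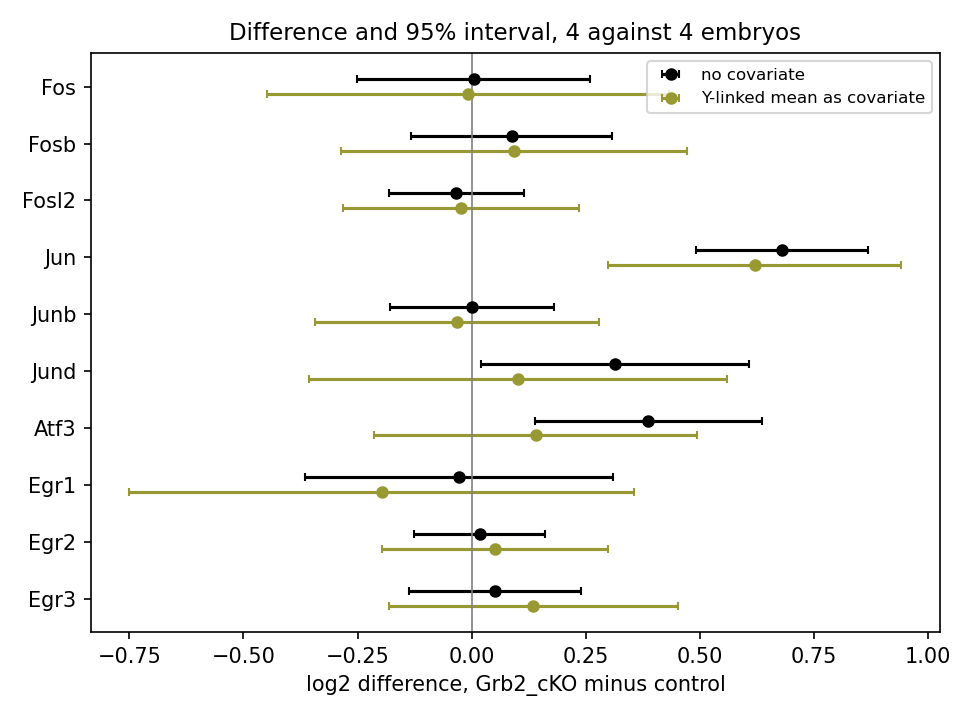
Log2 difference, Grb2_cKO minus control (x axis), with its 95% interval for each of the 10 genes, fitted without a covariate (black) and with the Y-linked covariate (olive). The interval of Jun lies above 0 in both fits (0.49 to 0.87 and 0.30 to 0.94), while those of Atf3 and Jund reach past 0 with the covariate.

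The FOS-type genes, whose products need a JUN partner to bind DNA, did not pass in either direction. Fos, the best known ERK-induced immediate early gene, was at 6.03, 5.85, 6.04 and 6.21 in controls 1 to 4 and at 5.78, 5.999, 6.07 and 6.29 in Grb2_cKO embryos 1 to 4. The lowest and the highest of the 8 values were both in Grb2_cKO embryos. The group means were 6.03 ± 0.15 and 6.04 ± 0.21, and the difference was 0.00 (SE 0.11, interval -0.25 to 0.26, adjusted p = 0.98). The interval leaves room for 84.0% to 119.8% of the control level, so changes of Fos within those bounds are compatible with the data. The smallest change that 4 embryos a group could detect was not worked out. With the macrophage list mean as a covariate Fos stood at -0.88 (SE 0.29), which did not pass (adjusted p = 0.44).

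Fosb, which encodes a close relative of FOS, was at 5.96, 5.81, 5.90 and 5.92 in controls 1 to 4 and at 6.24, 6.01, 5.90 and 5.78 in Grb2_cKO embryos 1 to 4. The Grb2_cKO embryos surrounded the controls, with an SD of 0.20 against 0.06, and the difference was 0.09 (SE 0.10, interval -0.13 to 0.31, adjusted p = 0.58). Fosl2 encodes FRA2, a FOS-type protein without the strong activation domain of FOS. It was at 9.35, 9.32, 9.33 and 9.36 in controls 1 to 4 and at 9.28, 9.22, 9.30 and 9.43 in Grb2_cKO embryos 1 to 4. Of the 4 Grb2_cKO values 3 lay below all controls and 1 above them, with a difference of -0.03 (SE 0.07, interval -0.18 to 0.11, adjusted p = 0.77). The Fos and Fosb probe sets were dim, at percentiles 31.1 and 29.4 of mean signal over all genes. No detection calls were used here, and signals of different probe sets do not rank genes by abundance.

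None of the EGR genes passed. Egr1, the EGR gene most often used as a readout of ERK activity, was at 7.59, 7.48, 7.96 and 8.12 in controls 1 to 4 and at 7.81, 7.48, 7.83 and 7.91 in Grb2_cKO embryos 1 to 4. Controls 3 and 4 lay above all Grb2_cKO embryos, while control 2 and Grb2_cKO embryo 2 were lowest, both at 7.48. The control SD of 0.30 was the largest among the 10 genes. The difference was -0.03 (SE 0.15, interval -0.36 to 0.31, adjusted p = 0.92), which leaves 77.7% to 124% of the control level, and with the Y-linked covariate it was -0.20 (SE 0.24, adjusted p = 0.72). The macrophage covariate put Egr1 at -0.91 (SE 0.47, adjusted p = 0.59) and the erythroid covariate at -0.50 (SE 0.31, adjusted p = 0.41).

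Egr2, known for its role in myelination and hindbrain patterning, was at 6.48, 6.49, 6.48 and 6.596 in controls 1 to 4 and at 6.47, 6.53, 6.598 and 6.52 in Grb2_cKO embryos 1 to 4. All 8 values lay within a narrow band, and the difference was 0.02 (SE 0.06, interval -0.13 to 0.16, adjusted p = 0.88). Egr3, a related factor of muscle spindles and lymphocytes, was at 6.47, 6.58, 6.47 and 6.69 in controls 1 to 4 and at 6.76, 6.64, 6.49 and 6.53 in Grb2_cKO embryos 1 to 4. Its groups overlapped and the difference was 0.05 (SE 0.08, interval -0.14 to 0.24, adjusted p = 0.72). The order of the 10 genes by log2 difference was Jun, Atf3, Jund, Fosb, Egr3, Egr2, Fos, Junb, Egr1 and Fosl2, and the intervals of the last 7 overlapped one another and all held 0. The interval of Jun lay above the intervals of those 7 genes and overlapped those of Atf3 and Jund.

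The arrays of a group, 1 per embryo, differed in several of these genes at once. Control 4 had the highest control value for 6 of the 10 genes, and its mean deviation from the control means was 0.10. Controls 1 and 2 had the lowest value for 4 genes each, with mean deviations of -0.09 and -0.06. Among the Grb2_cKO embryos, embryo 4 was highest for 6 genes (mean deviation 0.08) and embryo 2 lowest for 5 (-0.10). Fosb went against this order, with its lowest Grb2_cKO value in embryo 4. In the controls the mean deviation rose from control 1 to control 4 as the array median over all genes fell, from 6.72 to 6.61. In Grb2_cKO the match was partial. Embryo 4 had the lowest array median of its group, but embryo 1 had the highest and a mean deviation of 0.03. Whether these differences lie in the arrays or in the embryos was not tested.

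**Figure D3:**
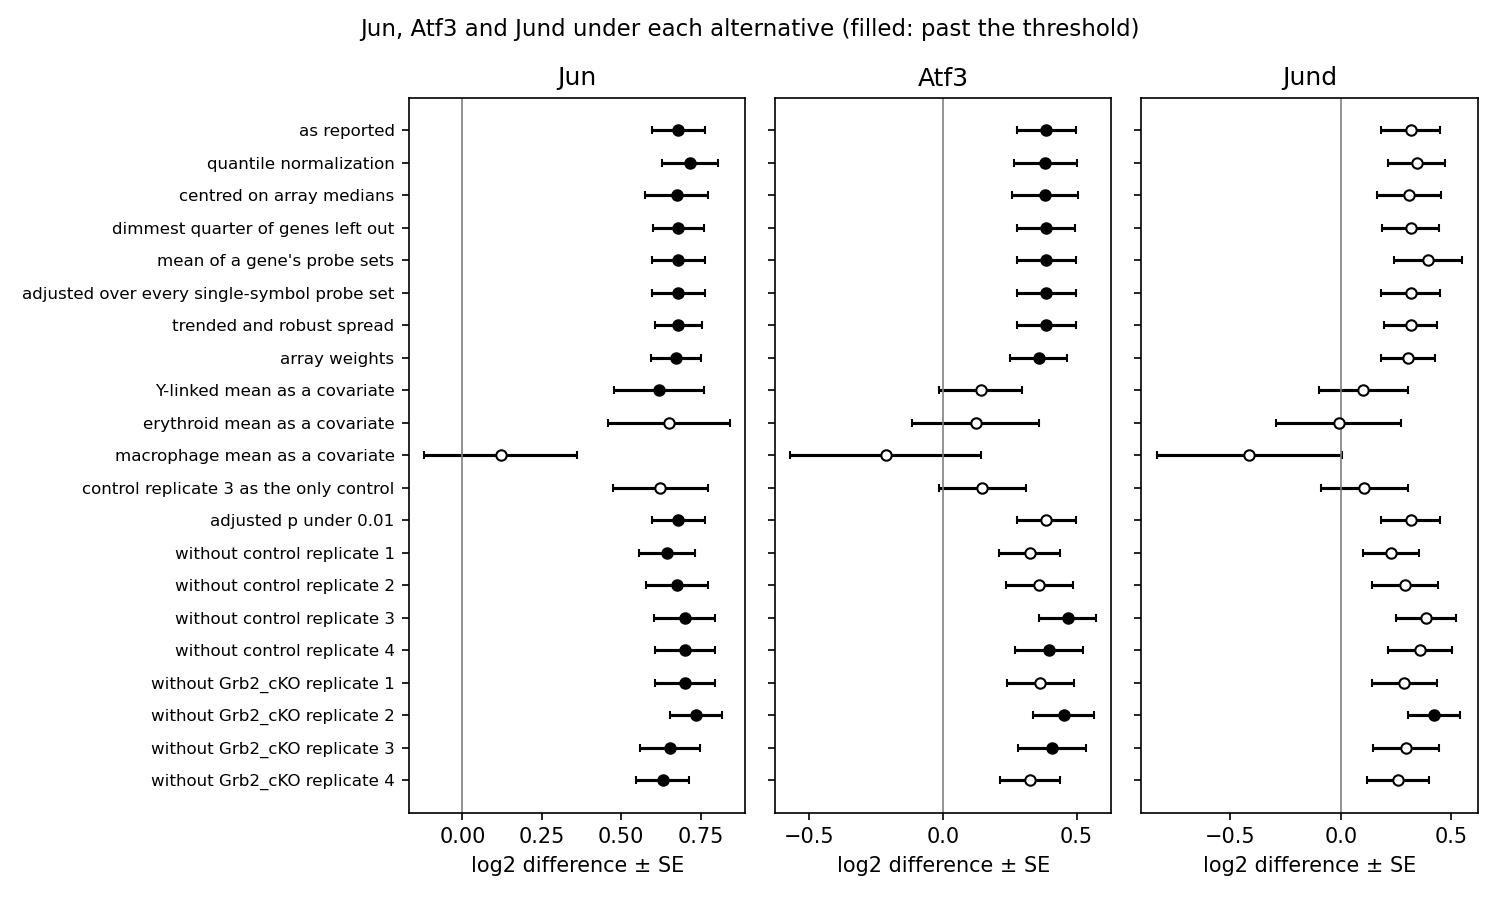
Log2 difference with its SE (x axes) for Jun, Atf3 and Jund under the main fit and 20 alternatives (y axis); filled points passed the threshold of that fit. Jun is filled in all but 3 alternatives, which use the erythroid or macrophage mean as a covariate or control 3 as the only control, Atf3 is open in 9 of the 20, and Jund is filled in 1.

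By root mean square difference of centred log2 values over the 8 arrays, the genes most like Jun were Susd6 (0.035), Slc41a3 (0.043) and Pde5a (0.045), a cyclic GMP phosphodiesterase gene. Their log2 differences were 0.65 (SE 0.09), 0.65 (SE 0.09) and 0.67 (SE 0.07). The genes most like Atf3 were Wdr83 (0.041), Arsa, which encodes the lysosomal enzyme arylsulfatase A (0.049), and Zfp414 (0.054), with log2 differences of 0.34 (SE 0.11), 0.37 (SE 0.12) and 0.38 (SE 0.11). Like Atf3, these 3 lost the call in several fits without 1 embryo, with adjusted p-values of up to 0.126, 0.119 and 0.084 (each without control 2). The 8 arrays share the group difference, so likeness over them is in large part that difference.

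Among 18 other measured genes of the AP-1, ATF, MAF and EGR families and their cofactors, 4 were higher, none was lower and 14 did not pass (22.2% called, median 0.02). Maf, a large MAF factor of macrophages and other lineages, was at 8.76 to 8.84 in controls against 9.52 to 9.92 in Grb2_cKO, a rise of 0.95 (SE 0.09, adjusted p = 0.00011). Atf7, whose product is closely related to ATF2 and pairs with JUN, went from 10.42 ± 0.05 to 11.02 ± 0.05, a rise of 0.59 (SE 0.06, adjusted p = 0.00020). Nab2, an EGR-induced corepressor of EGR proteins, rose by 0.53 (SE 0.10, adjusted p = 0.0028), although none of the 3 EGR genes described above passed. Atf5, named after its values were seen, rose by 0.42 (SE 0.11, adjusted p = 0.014). In the fit with the Y-linked covariate Maf (0.94) and Atf7 (0.57) passed, while Nab2 at 0.49 (adjusted p = 0.117) and Atf5 at 0.30 (0.36) did not.

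Of 46 other immediate early genes, 17 were higher, 5 were lower and 24 did not pass (47.8% called, against 28.1% of all genes), with a median of 0.16. Klf4, a zinc finger factor, rose by 1.13 (SE 0.10, adjusted p = 9.87e-05), from 7.73 ± 0.20 to 8.85 ± 0.08. Dusp5, an ERK-induced phosphatase of nuclear ERK, fell by 1.09 (SE 0.12, adjusted p = 0.00021), and the kinase gene Pim1 fell by 0.57 (SE 0.07, adjusted p = 0.00040). The other 3 that were lower, named after their values were seen, were Trib1 (-0.36, SE 0.08), Ier2 (-0.31, SE 0.08) and Mcl1 (-0.26, SE 0.07). The 3 nuclear receptor genes of the list, also named afterwards, were all higher: Nr4a3 by 0.90 (SE 0.19), Nr4a2 by 0.31 (SE 0.09) and Nr4a1 by 0.29 (SE 0.09). Higher too, and named afterwards, were Per1 (1.03, SE 0.16), Zfp36 (0.84, SE 0.12), Dusp1 (0.65, SE 0.11) and Klf6 (0.54, SE 0.08). Their limma adjusted p-values were 0.00088 to 0.0019. Apart from Rgs2, the rest of the 17 are not named. Leaving out single embryos ended the calls of Nr4a1 and Nr4a2 (adjusted p up to 0.088 and 0.087, without control 2), Ier2 (0.059, without Grb2_cKO embryo 3) and Mcl1 (0.055, without control 2). Averaged over its probe sets, Mcl1 stood at -0.11 (adjusted p = 0.24). When the Y-linked covariate was added, 4 of the 22 passed in the same direction, namely Klf4, Dusp5, Pim1 and Rgs2. Rgs2, the gene of a G protein regulator, is named for this after its values were seen (0.46 without and 0.57 with the covariate, and 0.28 where its probe sets were averaged).

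**Figure D4:**
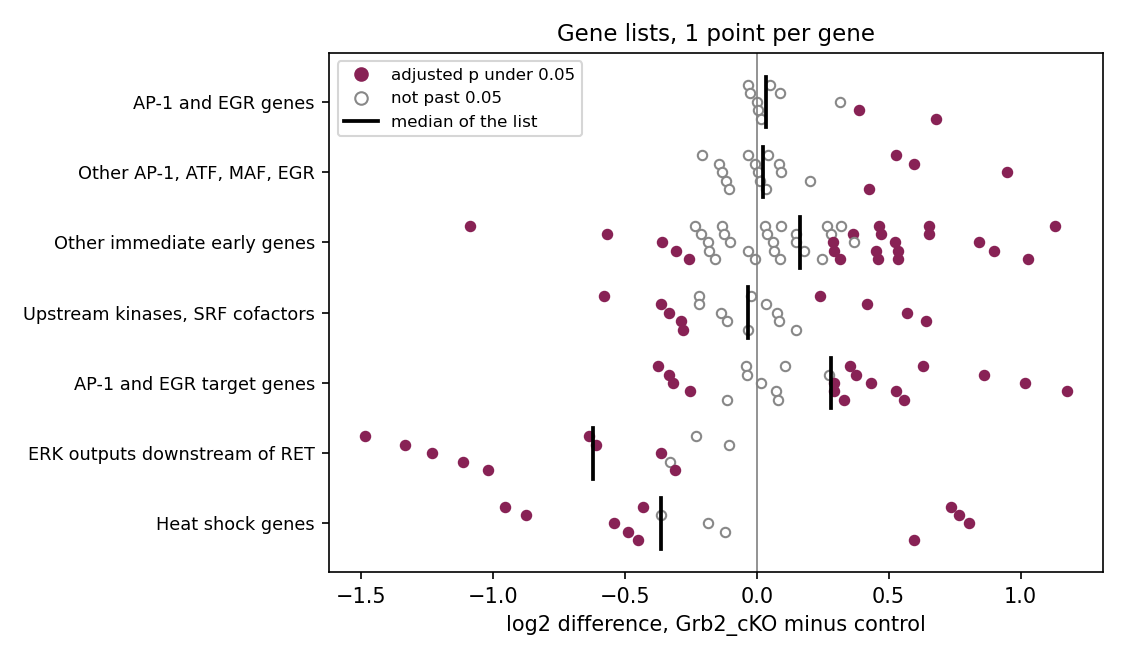
Log2 difference, Grb2_cKO minus control (x axis), of each measured gene of 7 lists, 1 point per gene, filled where the adjusted p was under 0.05, with the median of each list as a black bar. The medians run from 0.28 for AP-1 and EGR target genes to -0.62 for ERK outputs downstream of RET. The AP-1 and EGR genes are at 0.03 and other immediate early genes at 0.16.

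Of 12 ERK outputs downstream of RET, such as the feedback inhibitors of receptor signalling, 9 were lower, none was higher and 3 did not pass (median -0.62). That is 75% called, against 28.1% of all genes in either direction and 14.3% lower. Spry1 fell by 1.23 (SE 0.08), Dusp6 by 1.11 (SE 0.08) and Myb by 1.02 (SE 0.08), with adjusted p-values of 3.22e-05, 3.72e-05 and 4.26e-05. Where a gene's probe sets were averaged, Dusp6 stood at -0.53 and Myb at -0.56, both past the threshold. In the same 8 kidneys and the fit without a covariate Fos, Egr1, Egr2 and Egr3, also known as ERK outputs, stood at 0.00, -0.03, 0.02 and 0.05. Their probe sets were at percentiles 31.1, 57.2, 39.7 and 40.7 of mean signal over all genes. They were dimmer than those of Spry1, Dusp6 and Myb, at percentiles 82.0, 92.7 and 66.8. Not all called genes of the list were brighter than Egr1. Etv4, named after its values were seen and also on the ureteric epithelium list, fell by 1.49 (SE 0.14) at percentile 54.6. Whether dim signal hid a change was not tested. The Y-linked covariate left 6 of these 9 lower, Spry1, Dusp6 and Myb among them.

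Genes that act on AP-1 and EGR genes or proteins went both ways: of 19 kinases, SRF cofactors and ubiquitin ligases 4 were higher, 5 lower and 10 not passing (median -0.03). This makes 47.4% called, against 28.1% of all genes. Mapk10, which encodes JNK3, rose by 0.64 (SE 0.08, adjusted p = 0.00042), and Mrtfa, an SRF coactivator gene, rose by 0.57 (SE 0.11, adjusted p = 0.0031). The rest of the 4 that were higher, named after their values were seen, were the SRF cofactor genes Elk1 and Mrtfb. Elk1 rose by 0.42 (SE 0.12, adjusted p = 0.024) and Mrtfb, on its brighter probe set, by 0.24 (SE 0.06, adjusted p = 0.013). Rps6ka3, which encodes the ERK-activated kinase RSK2, fell by 0.58 (SE 0.12, adjusted p = 0.0049). The other 4 that were lower, named after their values were seen, were Mapk8, which encodes the JUN kinase JNK1 (-0.36, SE 0.08), Fbxw7 (-0.33, SE 0.09) and Cop1 (-0.28, SE 0.08), which encode ubiquitin ligase subunits known to mark JUN for breakdown, and Map2k1, the gene of the ERK kinase MEK1 (-0.29, SE 0.10). The calls of Fbxw7, Cop1 and Map2k1 were lost when single embryos were left out (adjusted p up to 0.070, 0.087 and 0.12, without control 2, Grb2_cKO embryo 3 and control 3). Srf itself, also named afterwards, stood at -0.03 (SE 0.09, adjusted p = 0.85), and the 9 calls were lost with the Y-linked covariate, where Mapk10 stood at 0.47 (adjusted p = 0.051).

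Of 24 genes known as targets of AP-1 or EGR proteins in other tissues, 12 were higher, 4 lower and 8 not passing (median 0.28). That is 66.7% called, against 28.1% of all genes, and the endothelial and erythroid marker lists had the same share of 66.7%. Hmox1, the heme oxygenase gene, rose by 1.02 (SE 0.10, adjusted p = 0.00015), the membrane protease gene Mmp14 by 0.56 (SE 0.08, adjusted p = 0.00092) and the metallothionein gene Mt2 by 1.18 (SE 0.19, adjusted p = 0.0016). The Y-linked covariate left 1 of these 16 called, Hmox1 at 1.05 (adjusted p = 0.016). In the list of 13 heat shock genes, which can rise with handling and stress, 4 were higher, 6 lower and 3 not passing (median -0.36, 76.9% called). Hspd1, the mitochondrial chaperonin gene, fell by 0.96 (SE 0.09), Hsph1 by 0.87 (SE 0.12) and Hsp90aa1 by 0.54 (SE 0.08), with adjusted p-values of 0.00012, 0.00075 and 0.00079. The 4 that were higher, named after their values were seen, were Hspa1a, which encodes an inducible HSP70 (0.80, SE 0.15, adjusted p = 0.0034), the small heat shock protein genes Hspb8 (0.77, SE 0.12, 0.0012) and Hspb1 (0.74, SE 0.13, 0.0022), and the HSP70 cochaperone gene Bag3 (0.60, SE 0.17, 0.026). None of these 4 passed with the Y-linked covariate (adjusted p 0.069 to 0.47), Hspb1 stood at 0.47 where its probe sets were averaged, and Bag3 lost the call in 5 of 8 fits without 1 embryo (adjusted p up to 0.072, without control 2). The 3 not passing, also named afterwards, were Hspa1b (-0.36, SE 0.17), Hspa8 (-0.18, SE 0.06) and Dnajb1 (-0.12, SE 0.11). The rest of the 6 that were lower, named afterwards too, were Hsf2 (-0.49, SE 0.08), Hspe1 (-0.45, SE 0.13) and Hspa5 (-0.43, SE 0.07). Of the called genes of the list only Hspd1, Hsph1 and Hsp90aa1 passed with the Y-linked covariate. The part of heat shock genes in the results for Jun and Atf3 was not tested.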

How the data were processed

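The deposited table holds log2 values of 41345 probe sets for 8 arrays, which the authors made with the Transcriptome Analysis Console, per the submitters' processing notes. Neither its version nor the background correction, summarization or normalization is given in the sources used here. A log2 scale was judged by the values themselves, which run from 1.25 to 14.08 with array medians of 6.61 to 6.72, and nothing was normalized again. The number of arrays limits the precision.

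Probe sets were named through the platform annotation, with 23328 of 23521 single symbols updated by Entrez identifier to RefSeq GRCm38.p6. For 1082 genes with several probe sets the one of highest mean over the 8 arrays was used. All 22180 genes were fitted in limma 3.58.1 (R 4.3.3) with lmFit and eBayes and no covariate, and adjusted by Benjamini-Hochberg with a threshold of 0.05. The fit was tested on simulated log2 values with known changes, for the direction and size of the fitted differences. Differences are Grb2_cKO minus control with moderated SE, and group values are mean ± SD. Replicate numbers follow record order and pair nothing.

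The members and the 14 other lists were chosen with earlier results of these data known, and lists are described by counts and medians only. Of 247 genes listed, members included, 223 were measured. Named were all members, Grb2, up to 3 genes of smallest p per list, and the 3 genes nearest to each called member. Marker lists are given by counts. Genes named after their values were seen are marked. Alternatives were quantile normalization, centring, a filter on dim genes, other uses of probe sets, spread and weights, 3 covariates (means of the Y-linked, erythroid and macrophage lists), control 3 alone, a threshold of 0.01 and leaving out each embryo.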

Additional observations from a re-analysis of the deposited data

Results flagged for a closer look

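Outliers were sought in 110 groups of 4 embryos, for 55 of the genes named above, each in controls and in Grb2_cKO. In 6 groups 1 embryo stood apart from the other 3. The gap, as a share of the range, was there above Dixon's 95% critical value. Chance flags about 1 in 20 groups. Control 3 was that embryo in 4 of the 6. It had the high values of the Y-linked genes Eif2s3y (9.95, against 4.21 to 4.37 in the other controls), Kdm5d (9.70, against 4.16 to 4.22) and Uty (10.17, against 3.80 to 4.36), and the lowest control value of Rgs2 (9.42, against 9.55 to 9.58, a gap of 0.836 of the range). Egr2 was at 6.596 in control 4, against 6.48 to 6.49 in the other controls, a gap of 0.891 of the range, on a probe set whose 8 values span little. Mt2 was at 9.37 in Grb2_cKO embryo 2, against 10.03 to 10.14 in the other Grb2_cKO embryos, a gap of 0.855 of the range.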

How the results depend on the processing

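Jun kept its direction in all 20 alternatives and its call in 17, Atf3 kept its call in 11, and Jund gained one in 1. The other 7 AP-1 and EGR genes passed in none of the 20. Their values and that of Jund nevertheless moved with 2 covariates, with wide errors and none past the threshold. With the macrophage covariate Fos stood at -0.88 (SE 0.29), Egr1 at -0.91 (SE 0.47), Fosb at 0.67 (SE 0.30), Egr3 at 0.45 (SE 0.28), Jund at -0.42 (SE 0.42), Fosl2 at -0.37 (SE 0.21), Junb at 0.24 (SE 0.28) and Egr2 at -0.06 (SE 0.23). With the erythroid covariate Egr1 stood at -0.50 (SE 0.31), Egr3 at -0.25 (SE 0.15), Junb at -0.18 (SE 0.17), Fosb at -0.12 (SE 0.21) and Jund at -0.01 (SE 0.28). Array centring, quantile normalization, dropping the dimmest 25% of genes, averaging probe sets, adjusting over all probe sets, a trended and robust spread and array weights ended no call of Jun or Atf3. Averaging probe sets brought Dusp6 to -0.53, Myb to -0.56, Rgs2 to 0.28, Hspb1 to 0.47 and Mcl1 to -0.11, of which Mcl1 no longer passed. Under trended and robust spread 0 of the 3 Y-linked genes passed.

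With the Y-linked covariate Grb2 stood at -0.40 and no longer passed, 1 of the 10 AP-1 and EGR genes was higher, and 1246 of all genes passed. Of the lists, 2 other family genes, 4 other immediate early genes, 0 upstream genes, 1 target gene and 3 heat shock genes passed, with 8 ureteric, 5 nephron progenitor, 5 stroma, 1 podocyte, 0 endothelial, 5 macrophage and 1 erythroid markers. With control 3 as the only control Grb2 stood at -0.41 and no longer passed, 0 of the 10 genes and 285 of all genes passed, and the same lists gave 0, 2, 0, 0 and 0 genes and 5, 3, 0, 1, 0, 3 and 1 markers, with 0 Y-linked genes.

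With the erythroid covariate Grb2 stood at -0.52 and no longer passed, 0 of the 10 genes and 896 of all genes passed, and the lists gave 2, 4, 0, 1 and 1 genes, 7, 4, 5, 2, 0 and 2 markers (erythroid left out) and 0 Y-linked genes. Wdr83 turned to -0.00400, Bag3 to -0.0116, Nr4a1 to -0.0701 and Nr4a2 to -0.0682. With the macrophage covariate, whose values lay apart between the groups, Grb2 stood at -0.0937 and no longer passed, and limma called 0 of 22180 genes, although 2099 had an unadjusted p under 0.05. There Atf3 turned to -0.21, Mrtfa to -0.0642, Susd6 to -0.0253, Slc41a3 to -0.0114, Wdr83 to -0.23, Arsa to -0.24, Zfp414 to -0.25, Atf5 to -0.22, Mcl1 to 0.0326, Hspa1a to -0.22, Hspb8 to -0.0292, Bag3 to -0.41 and Nr4a3 to -0.77. The cause of these changes was not tested. No list was refitted with a covariate made from it.

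At an adjusted p under 0.01 passed 3809 of all genes, 1 of the 10 (Jun), 14 other immediate early genes, 4 upstream genes, 9 target genes, 3 podocyte markers, 4 endothelial markers and 0 Y-linked genes. Leaving out each embryo in turn gave 1 to 3 higher AP-1 and EGR genes, 5 to 8 upstream genes and 2 to 3 Y-linked genes. The other counts were 4894 to 5955 of all genes, 4 to 6 other family genes, 16 to 22 other immediate early genes, 11 to 15 target genes and 4 to 6 podocyte markers. In these fits Grb2 ran from -0.50 to -0.40. No paired analysis was possible because replicate numbers follow record order and pair nothing.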
